A study of Mus musculus with 12 samples.

Results

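The genes described here are 9 markers of alternatively activated macrophages, taken by their symbols from a table of 12339 mouse genes: Arg1, Chil3, Retnla, Mrc1, Cd163, Clec10a, Mgl2, Il4ra and Folr2. All 9 were in the table, with 124 (Cd163) to 33632 (Arg1) reads in a library. They were read in RNA of peritoneal macrophages from 4 groups of mice with 3 libraries each: wild type (WT) on chow, WT on a high-fat diet (HFD), meKO on chow and meKO on HFD. The series title ties meKO to protein kinase C epsilon in myeloid cells, and the labels name no recombinase line or driver. Every animal, chow controls included, received AAV8PCSK9 at 8 weeks of age, a viral vector that takes the LDL receptor away from hepatocytes, so that the HFD groups become hypercholesterolemic. After 4 weeks of diet, counted from the vector, macrophages were drawn into the peritoneum with sterile thioglycolate and collected by lavage. Thioglycolate-elicited cells are mostly monocyte-derived inflammatory macrophages, and the HFD groups differ from the chow groups in both diet and blood cholesterol. In such bulk samples, fewer cells of a type and less RNA per cell cannot be told apart.

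Alternative activation is the state that macrophages enter under interleukin-4 (IL-4) and interleukin-13, as in helminth infection, allergy and wound repair. Both cytokines bind receptors that contain the IL-4 receptor alpha chain, whose kinases phosphorylate STAT6, and STAT6 then switches on genes such as Arg1, Chil3, Retnla, Mrc1, Clec10a and Mgl2. Cd163 and Folr2 are raised by other signals, such as glucocorticoids, interleukin-10 and macrophage colony-stimulating factor, and mark many resident tissue macrophages.

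The libraries held 25844958 to 37282772 reads each over the listed genes. Prkce, the gene of protein kinase C epsilon, was at 2.01 to 4.44 CPM (reads scaled to library size) in the 6 WT libraries and at 0.95 to 1.78 CPM in the 6 meKO libraries, so the genotypes did not overlap. Lyz2, the lysozyme gene of myeloid cells, was at 30482 to 53835 CPM in WT and at 69.3 to 21309 CPM in meKO. The macrophage genes Adgre1 (513 to 697 CPM) and Csf1r (473 to 844 CPM) were high in every library. In WT chow libraries 1 and 2, a gene's deviation from its mean rose with the length of its transcript (Spearman's rho across genes 0.61 and 0.65), against -0.44 to 0.12 in the other 10 libraries. The diet results of the 9 markers in WT are therefore also given without both libraries, and with offsets that take out the relation to length and GC content in every library; for genes of the lists the offsets alone were used.

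**Figure D1:**
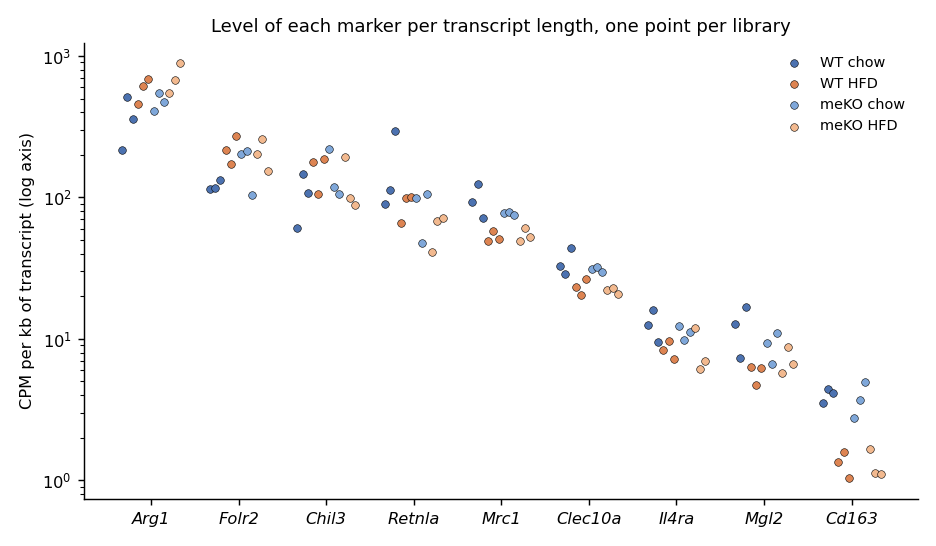
Level of each marker per length (CPM per kilobase of the longest annotated transcript, log axis) in the 12 libraries, with 1 point per library, coloured by group, and the genes ordered by mean. Arg1 is highest and Cd163 lowest in every library, with means of 532 and 2.61.

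Per kilobase of transcript, Arg1 was the most abundant marker, at a mean of 532 ± 174 CPM per kilobase (SD, n = 12), and lay above the next gene in 12 of 12 libraries. Folr2 (180 ± 56.9), Chil3 (134 ± 49.8) and Retnla (99.6 ± 65.4) followed on the same scale. These 3 overlapped in order: Folr2 was above Chil3 in 9 libraries, Chil3 above Retnla in 9 and Retnla above Mrc1 in 8. Mrc1 (69.9 ± 22.1 CPM per kilobase) was above Clec10a (27.9 ± 6.65) in every library, and Clec10a above Il4ra (10.1 ± 2.85) in every library. Il4ra and Mgl2 (8.52 ± 3.51) were not ordered beyond their spread, with Il4ra above in 9 libraries. Cd163 was the lowest, at 2.61 ± 1.46 CPM per kilobase.

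As fitted without offsets, these markers differed between the diets in both directions. Averaged over the genotypes, edgeR's quasi-likelihood test with Benjamini-Hochberg adjustment over all 12339 genes called 7 of the 9 at an adjusted p under 0.05, beside 30.2% of all genes. The receptors Cd163, Mrc1, Clec10a, Mgl2 and Il4ra were lower on HFD, where 15.3% of all genes were called lower, and Arg1 and Folr2 were higher, where 14.9% were called higher. Chil3 and Retnla did not pass. With the length and GC offsets neither Arg1 (0.35, edgeR adjusted p = 0.231) nor Folr2 (0.27, 0.219) was called, and 0 of the 9 were called higher. Il4ra also lost its call with the offsets (-0.26, edgeR adjusted p = 0.0856), while Retnla was called lower (-1.14, 0.0188). The counts that follow are from the fit without offsets. In WT alone 5 of 9 were called beside 21.3% of all genes, or 2634 genes, a number that ran from 96 to 4921 when 1 library was left out: Cd163, Mrc1, Clec10a and Mgl2 were lower, where 11.8% of all genes were called lower, and Folr2 was higher, where 9.5% were called higher. In meKO alone Cd163 was the 1 marker called, lower, beside 0.105% of all genes called and 0.0729% called lower; 4 of 9 had an unadjusted p under 0.05 there, beside 15.9% of all genes. The median log2 difference (HFD minus chow) of the 9 was -0.60 in WT, where the median of all genes was -0.03, and -0.41 in meKO, where that of all genes was -0.01. No marker was called for genotype by edgeR, as given below.

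**Figure D2:**
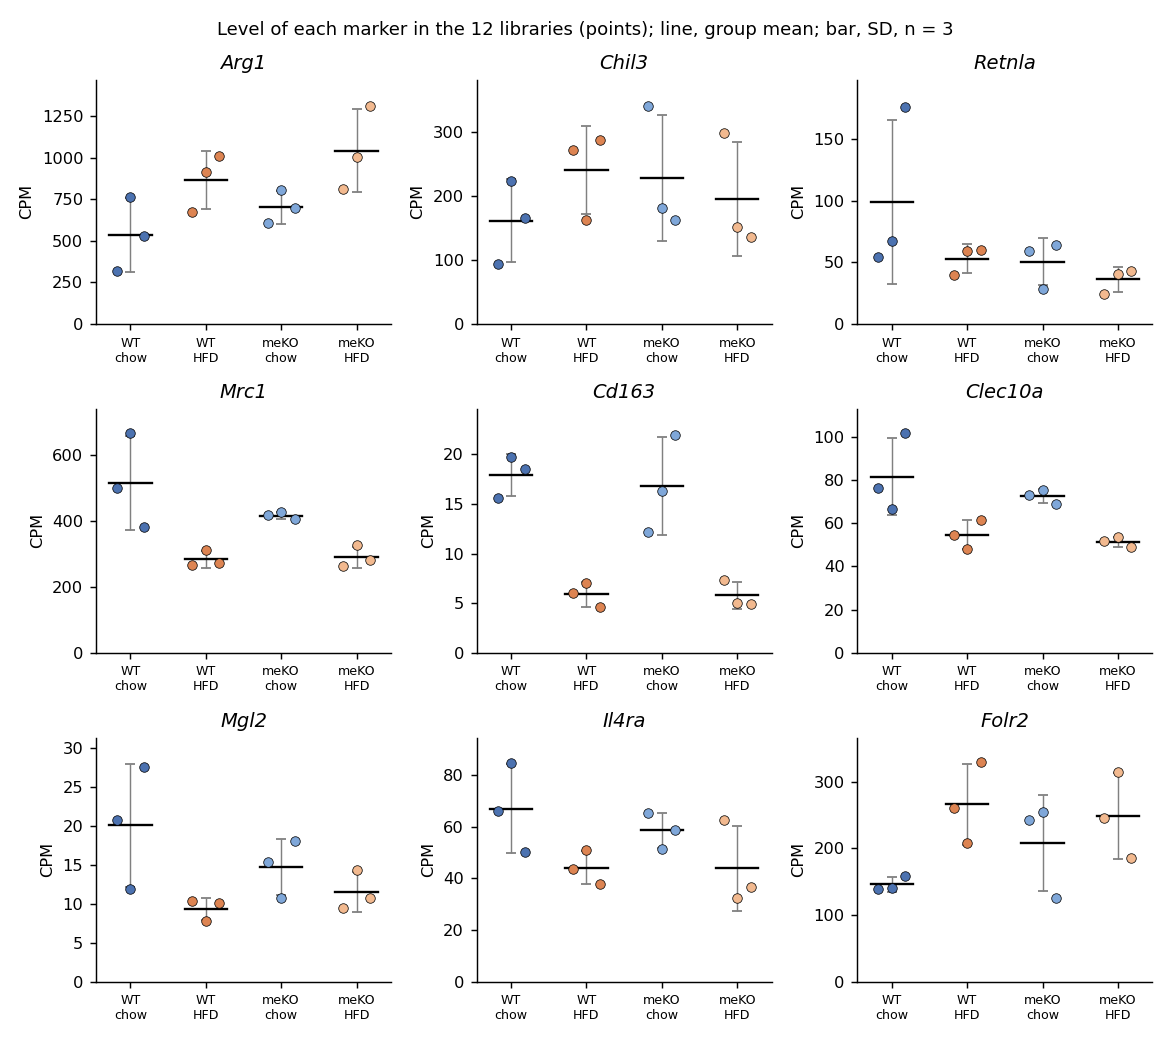
Level of each marker (CPM, linear axis from 0) in every library of the 4 groups, with points for libraries, lines for group means and bars for the SD (n = 3). The 6 HFD libraries sit below the 6 chow libraries for Mrc1, Cd163 and Clec10a, and Chil3 spreads from 94.1 to 341 CPM within the chow libraries.

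Cd163, the scavenger receptor that takes up haptoglobin-hemoglobin complexes, had the largest diet difference of the 9 in either genotype. Its levels in CPM were 15.6, 19.7 and 18.5 in the WT chow libraries, 6.02, 7.02 and 4.6 in WT HFD, 12.2, 16.3 and 21.9 in meKO on chow and 7.38, 5.04 and 4.92 in meKO on HFD. All 6 HFD libraries were below all 6 chow libraries, with a gap between 7.38 and 12.2 CPM. In WT it fell by 1.61 ± 0.23 (log2 ± SE; 3.05-fold; edgeR adjusted p = 0.00349). The meKO libraries gave a fall by 1.53 ± 0.23 (2.89-fold; edgeR adjusted p = 0.018). By p-value it ranked 8 of the 12339 genes in the averaged diet comparison (log2 -1.57 ± 0.16, adjusted p = 2.51e-04). Cd163 kept its call in WT when any 1 library was left out and with the length and GC offsets (-1.48, adjusted p = 0.00424), and without WT chow libraries 1 and 2 together its difference was -1.66 with an adjusted p of 0.085. In meKO the call was lost without meKO chow replicate 3 (-1.30, adjusted p = 0.0834), meKO HFD replicate 2 (-1.44, 0.149) or meKO HFD replicate 3 (-1.44, 0.16), and when the 2 meKO groups were fitted alone (-1.53, 0.116). Averaged over genotypes it was called in all 22 alternatives tried.

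Mrc1 encodes the mannose receptor CD206, which binds glycans and collagens on the macrophage surface. In CPM it was at 499, 664 and 382 in WT chow and at 266, 312 and 271 in WT HFD. In meKO chow it was at 416, 426 and 404 CPM, an SD of 2.67% of the mean, and in meKO HFD at 263, 325 and 280 CPM. Every HFD library was below every chow library. Mrc1 fell by 0.86 ± 0.16 on the log2 scale in WT (1.82-fold; edgeR adjusted p = 0.0106), and in meKO the difference was -0.52 ± 0.16 (adjusted p = 0.206). The highest values were in WT chow libraries 1 and 2: without both, the difference in WT was -0.43 and not called (adjusted p = 0.395), and it was also not called without WT HFD replicate 3 (-0.82, adjusted p = 0.0632). With the length and GC offsets it remained called in WT, at -0.70. Averaged over genotypes the log2 difference was -0.69 ± 0.11 (adjusted p = 0.00415), called in all 22 alternatives.

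Clec10a and Mgl2 encode the galactose-type C-type lectins CD301a and CD301b. They are neighbours on chromosome 11 on the same strand (GRCm38, 70156197 to 70170834 for Clec10a and 70130329 to 70137550 for Mgl2), with 18646 bases between them. The longest Clec10a transcript shares 10.6% of its 50-base windows with Mgl2, so reads of the shared stretches may be split between the 2 genes. Clec10a was, in CPM, at 76.4, 66.8 and 102 in WT chow, 54.7, 48 and 61.4 in WT HFD, 73.2, 75.3 and 69 in meKO on chow and 51.6, 53.7 and 48.8 in meKO on HFD. All HFD libraries were below all chow libraries. Clec10a fell by 0.58 ± 0.14 in WT (log2; edgeR adjusted p = 0.0206), and its difference in meKO was -0.50 ± 0.14 (adjusted p = 0.182). Mgl2 was, in CPM, at 20.7, 11.9 and 27.6 in WT chow and 10.3, 7.75 and 10.1 in WT HFD, which do not overlap. In meKO chow it was at 15.4, 10.8 and 18 CPM and in meKO HFD at 9.43, 14.3 and 10.8 CPM, which overlap. Mgl2 fell by 1.10 ± 0.27 in WT (2.14-fold; edgeR adjusted p = 0.0207), with -0.35 ± 0.27 in meKO (adjusted p = 0.515). The ratio of Clec10a to Mgl2 CPM ran from 3.68 to 6.95 over the 12 libraries.

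The calls of both lectins in WT depended on single libraries. Clec10a was not called without WT chow replicate 1 (adjusted p = 0.0808) or WT HFD replicate 1 (0.0612), 2 (0.0587) or 3 (0.0712), and Mgl2 was not called without the same 4 libraries (adjusted p 0.0911, 0.0561, 0.0547 and 0.0854). Without WT chow libraries 1 and 2 together, Clec10a was the 1 marker still called in WT (-0.89, adjusted p = 0.0409), beside 0.122% of all genes, and Mgl2 was at -1.55 (0.0611). With the length and GC offsets both were called in WT, Clec10a at -0.71 (adjusted p = 0.00527) and Mgl2 at -1.37 (0.00946). Averaged over genotypes, Clec10a (-0.54 ± 0.10, edgeR adjusted p = 0.0056) and Mgl2 (-0.72 ± 0.19, adjusted p = 0.0161) were called in all 22 alternatives. Summed dendritic cell marker RNA (9 of 9 genes listed), a cell type that also carries CD301b, moved with these genes in WT: 45.2 to 66.5 CPM on chow and 23.3 to 33 CPM on HFD, with 31.9 to 61.9 and 30.5 to 48 CPM in meKO. Of the 9 genes 3 were called lower in WT, beside 11.8% of all genes, and 0 in meKO. None was at 0 in any library. Xcr1 was at 0.628 to 2.08 CPM and Clec9a at 1.14 to 2.88 CPM, and neither marks the cells with CD301b in particular. The gene with the highest mean, Cd209a (24.2 CPM in WT chow, 13.4 in WT HFD), is also in the list of IL-4 targets below. The part of dendritic cells in the lectin result was not tested.

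RefSeq gives the 300 bases around the annotated start (250 before, 50 after; GRCm38.p6) for 7 of the 9 markers; Arg1 and Clec10a had no entry. Shown are the windows of 3 receptors that were lower on HFD and then of Retnla and Chil3, secreted products in which a spacing bound by STAT proteins was found; capitals mark TTCNNNNGAA or TTCNNNGAA. Each of these 2 motifs reads the same on both strands, and no window holds both.
Cd163, chr6:124304401-124304700, plus strand: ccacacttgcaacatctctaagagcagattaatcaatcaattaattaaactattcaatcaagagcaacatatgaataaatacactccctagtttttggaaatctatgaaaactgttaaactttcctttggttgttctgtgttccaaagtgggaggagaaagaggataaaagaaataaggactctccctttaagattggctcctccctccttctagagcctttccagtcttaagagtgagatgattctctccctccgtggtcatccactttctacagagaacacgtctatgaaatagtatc
Mrc1, chr2:14229164-14229463, plus strand: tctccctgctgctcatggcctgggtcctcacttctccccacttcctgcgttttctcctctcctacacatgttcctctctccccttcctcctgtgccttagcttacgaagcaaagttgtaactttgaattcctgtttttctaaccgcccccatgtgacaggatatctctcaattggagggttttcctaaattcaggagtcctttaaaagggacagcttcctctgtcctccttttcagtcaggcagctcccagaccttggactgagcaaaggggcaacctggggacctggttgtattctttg
Mgl2, chr11:70130107-70130406, plus strand: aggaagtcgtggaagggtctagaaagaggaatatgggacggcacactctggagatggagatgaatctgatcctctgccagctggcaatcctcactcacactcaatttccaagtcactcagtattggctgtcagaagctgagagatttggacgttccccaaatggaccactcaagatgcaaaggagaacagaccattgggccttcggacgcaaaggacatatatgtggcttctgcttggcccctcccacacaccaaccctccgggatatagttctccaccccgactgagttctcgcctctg
Retnla, chr16:48842359-48842658, plus strand: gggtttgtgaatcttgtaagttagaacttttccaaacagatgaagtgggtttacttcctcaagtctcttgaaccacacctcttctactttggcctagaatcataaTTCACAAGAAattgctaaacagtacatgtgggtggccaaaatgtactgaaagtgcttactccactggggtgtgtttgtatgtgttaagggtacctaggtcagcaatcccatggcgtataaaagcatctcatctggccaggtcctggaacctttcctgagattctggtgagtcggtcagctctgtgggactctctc
Chil3, chr3:106167515-106167814, minus strand: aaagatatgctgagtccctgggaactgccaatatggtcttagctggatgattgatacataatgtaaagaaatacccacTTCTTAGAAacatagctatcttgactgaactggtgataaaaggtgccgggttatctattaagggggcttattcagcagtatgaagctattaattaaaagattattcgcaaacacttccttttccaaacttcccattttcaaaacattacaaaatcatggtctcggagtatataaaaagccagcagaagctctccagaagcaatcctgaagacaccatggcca

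The Retnla window holds TTCACAAGAA 145 to 136 bases before the start, a TTCNNNNGAA match, which 6.95% of 32851 promoter windows have. The Chil3 window holds TTCTTAGAA 172 to 164 bases before the start, a TTCNNNGAA match, which 8.3% of the windows have. Neither set of letters is in the windows of Cd163, Mrc1, Mgl2, Il4ra or Folr2. A match is a description of the letters and no evidence of binding.

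Retnla (RELMalpha, FIZZ1) is a small secreted cysteine-rich protein. Its CPM values were 54, 67.2 and 176 in WT chow, 39.4, 59.3 and 60.1 in WT HFD, 59.4, 28.5 and 63.7 in meKO on chow and 24.5, 40.5 and 43.2 in meKO on HFD. WT chow replicate 3 stood far above the rest, and the diets overlapped within each genotype. The diet difference was -0.90 ± 0.46 in WT (log2; edgeR adjusted p = 0.172) and -0.49 ± 0.46 in meKO (adjusted p = 0.61). Without WT chow replicate 3 the WT value was -0.18 (adjusted p = 0.698), and without WT chow libraries 1 and 2 together it was -1.73 (0.23). With the length and GC offsets Retnla, whose transcript of 599 bases is the shortest of the 9, was lower on HFD in WT by 1.42 on the log2 scale (adjusted p = 0.0449) and in the average of the genotypes (-1.14, adjusted p = 0.0188).

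Chil3 (Ym1) is a secreted chitinase-like lectin. Measured in CPM, it was at 94.1, 224 and 166 in WT chow, 272, 162 and 288 in WT HFD, 341, 181 and 162 in meKO on chow and 298, 152 and 136 in meKO on HFD. Libraries of a group differed by up to 2.38-fold, and all 4 groups overlapped. Its diet differences of 0.58 ± 0.42 in WT (log2; edgeR adjusted p = 0.328) and -0.22 ± 0.42 in meKO (adjusted p = 0.815) were not called. In WT the difference was 0.14 with the length and GC offsets (adjusted p = 0.87) and 0.54 without WT chow libraries 1 and 2 together (0.779). Chil3 shares 18.5% of its 50-base windows with Chil4, whose group means were 1.17 to 1.86 CPM.

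Arg1, arginase 1, splits arginine into ornithine and urea. Its level was, in CPM, 320, 761 and 527 in WT chow, 674, 911 and 1012 in WT HFD, 605, 803 and 694 in meKO on chow and 811, 1004 and 1309 in meKO on HFD. The 3 meKO HFD libraries were above the 3 meKO chow libraries, while the WT groups overlapped. The difference was 0.69 ± 0.26 in WT (log2; edgeR adjusted p = 0.0718) and 0.57 ± 0.26 in meKO (adjusted p = 0.308). Averaged over genotypes Arg1 rose by 0.63 ± 0.19 (1.55-fold; edgeR adjusted p = 0.024). That call was lost with the length and GC offsets (0.35, adjusted p = 0.231), without WT chow libraries 1 and 2 together (0.64, 0.0733), and without WT HFD replicate 3 (0.0625), meKO chow replicate 1 (0.0506) or 3 (0.0536), or meKO HFD replicate 2 (0.0553) or 3 (0.0564). In WT Arg1 was at 0.29 with the offsets (adjusted p = 0.519) and 0.72 without WT chow libraries 1 and 2 together (0.437). There it was called by DESeq2 (adjusted p = 0.0294), by voom with quality weights (0.0209) and by edgeR without WT chow replicate 2 (0.0468). The ratio of Arg1 to Mrc1 CPM was 0.642 to 1.38 in WT chow and 2.53 to 3.73 in WT HFD. In meKO it was 1.45 to 1.88 on chow and 3.09 to 4.67 on HFD. Every HFD library was above every chow library, but Mrc1 alone already separated the diets, so the ratio adds no independent result. It sets a transcript of 1477 bases over 1 of 5374 bases and was not corrected for length.

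Folr2, folate receptor beta, is a surface folate carrier of macrophages. It was measured at a CPM of 139, 140 and 159 in WT chow, 260, 208 and 329 in WT HFD, 243, 255 and 125 in meKO on chow and 246, 314 and 185 in meKO on HFD. WT HFD was above WT chow in all libraries, and the meKO groups overlapped. Folr2 rose by 0.86 ± 0.25 in WT (log2; 1.82-fold; edgeR adjusted p = 0.0304), with 0.26 ± 0.25 in meKO (adjusted p = 0.609) and 0.56 ± 0.18 averaged (adjusted p = 0.0299). With the length and GC offsets the difference was 0.46 in WT (adjusted p = 0.161) and 0.27 averaged (0.219). Leaving out WT chow replicate 1 (adjusted p = 0.12) or 2 (0.112), both (0.74 on the log2 scale, 0.592), or WT HFD replicate 1 (0.0689) or 3 (0.134) also ended the call in WT. The averaged call was lost without the same 4 libraries (adjusted p 0.0718, 0.0738, 0.0521 and 0.0838), without both WT chow libraries (0.272), or without meKO chow replicate 3 (0.0535) or meKO HFD replicate 2 (0.087). The ratio of Folr2 to Cd163 CPM, markers that often go together on resident macrophages, was 7.14 to 8.91 in WT chow and 29.7 to 71.6 in WT HFD, 5.7 to 20 in meKO chow and 33.4 to 62.3 in meKO HFD. Cd163 alone already separated the diets, so this ratio adds no independent result. It sets a transcript of 1204 bases over 1 of 4443 bases and was not corrected for length.

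Il4ra, the IL-4 receptor alpha chain, was, in CPM, at 66, 84.6 and 50.3 in WT chow, 43.6, 50.9 and 37.9 in WT HFD, 65.2, 51.4 and 58.8 in meKO on chow and 62.5, 32.3 and 36.6 in meKO on HFD. Values of both diets overlapped within each genotype. The difference was -0.60 ± 0.23 in WT (log2; edgeR adjusted p = 0.0741) and -0.41 ± 0.23 in meKO (adjusted p = 0.378). Averaged over genotypes Il4ra fell by 0.51 ± 0.16 (edgeR adjusted p = 0.0335), with -0.26 under the length and GC offsets (adjusted p = 0.0856) and -0.30 without WT chow libraries 1 and 2 together (0.342). That call was lost on leaving out any 1 of 8 libraries, with adjusted p from 0.0644 to 0.0902: WT chow 1 or 2, WT HFD 1 or 3, meKO chow 1 or 3, or meKO HFD 2 or 3. In WT it was at -0.23 with the offsets (adjusted p = 0.3) and -0.19 without WT chow libraries 1 and 2 together (0.851). There it was called by DESeq2 (adjusted p = 0.0495), by voom with quality weights (0.00408), and by edgeR when WT chow replicate 3 (0.0262) or meKO HFD replicate 1 (0.0279) was left out.

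**Figure D3:**
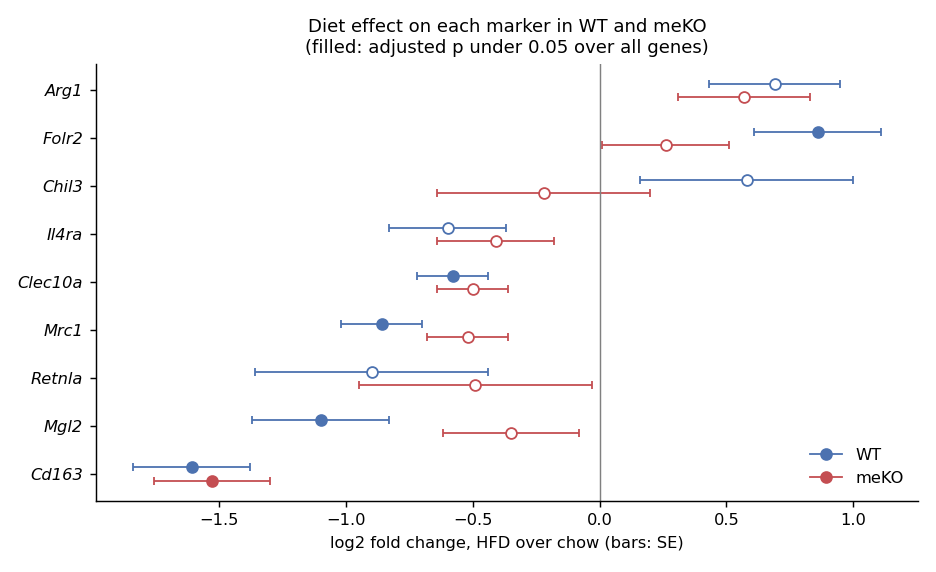
Log2 difference of HFD minus chow for each marker in WT and in meKO, with 0 marking no difference. Points are edgeR estimates, and bars are the SE, which is narrower than a 95% interval. Cd163 lies lowest in both genotypes, at -1.61 and -1.53.

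**Figure D4:**
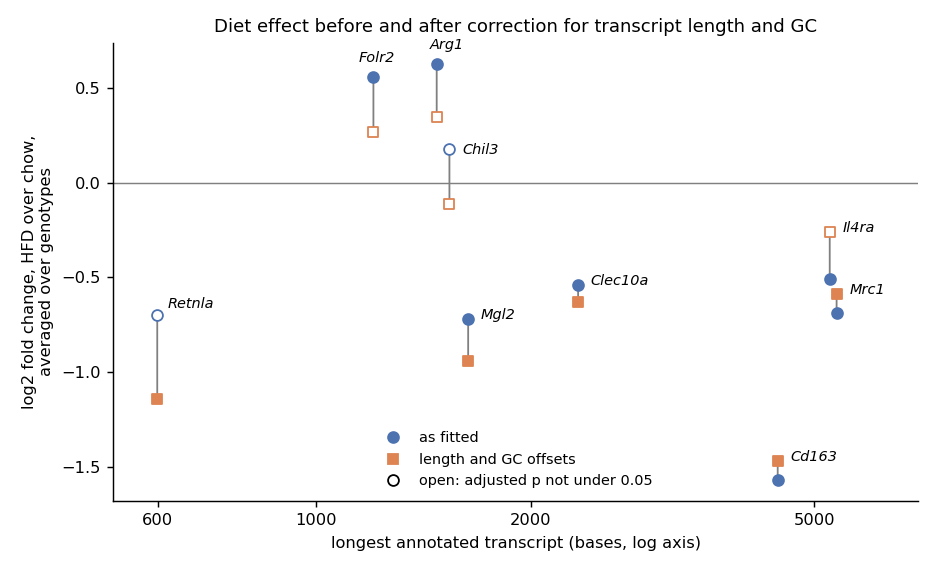
Log2 difference of HFD minus chow, averaged over genotypes, against the length of each marker's longest transcript (bases, log axis), as fitted (circles) and with the length and GC offsets (squares); open symbols did not pass an adjusted p of 0.05. Arg1 moves from 0.63 to 0.35 and Retnla from -0.70 to -1.14, while Cd163 moves from -1.57 to -1.47.

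With the offsets, 5 of 9 markers were called in WT beside 12.9% of all genes, and 5 of 9 averaged over genotypes beside 24.2%. In both cases these were Retnla, Mrc1, Cd163, Clec10a and Mgl2, and all were lower on HFD, beside 7.66% of all genes called lower in WT and 12.8% averaged. In meKO Cd163 was again the 1 marker called, beside 0.3% of all genes. Without WT chow libraries 1 and 2 together, Mrc1, Cd163, Clec10a and Mgl2 were called in the averaged comparison, all lower, beside 1.64% of all genes. The libraries of the 2 diets did not overlap for 5 of 9 markers in WT (39.3% of all genes), for 4 of 9 in meKO (19.7%) and for 3 of 9 over all 12 libraries (5.76%).

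Genotype was compared on each diet. On chow (meKO minus WT) 0 of 9 markers were called by edgeR, beside 0.081% of all genes, with 0 at an unadjusted p under 0.05 (19.8% of all genes), and the differences ran from -0.97 (Retnla) to 0.51 (Folr2). Retnla was at -0.97 ± 0.46, and without WT chow replicate 3 its value was -0.25. On HFD 0 of 9 were called by edgeR beside 0.081% of all genes, with 0 at an unadjusted p under 0.05 (4.56% of all genes), and the differences ran from -0.56 (Retnla) to 0.29 (Mgl2). Averaged over diets 0 of 9 were called by edgeR beside 0.17% of all genes, and Retnla alone had an unadjusted p under 0.05, as 17.7% of all genes did (-0.76 ± 0.33, adjusted p = 0.269). DESeq2 called 0 of 9 in each of these 3 comparisons, and voom with library quality weights called Mrc1 on chow, beside 32.8% of all genes, and Arg1 averaged, beside 31.1%. Leaving out WT chow replicate 3 gave 1 edgeR call on chow, Mrc1, beside 20.6% of all genes.

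The test of whether the diet difference itself differed between genotypes called 0 of 9 by edgeR, beside 0.0162% of all genes, and 0 had an unadjusted p under 0.05 (6.13% of all genes). DESeq2 called 0 as well. The largest values (meKO minus WT difference) were -0.80 ± 0.59 for Chil3, 0.74 ± 0.38 for Mgl2 (edgeR adjusted p = 0.797) and -0.61 ± 0.35 for Folr2. So the calls of Mrc1, Clec10a, Mgl2 and Folr2 in WT and not in meKO are not shown to be a difference between genotypes. For Cd163 the 95% interval of the difference was -0.61 to 0.77.

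Genes of the IL-4 pathway were read from lists. Of 25 receptor and signalling genes 20 were listed; Il4, Il13, Il13ra2, Socs1 and Cish were not in the table. In WT 3 of the 20 were called higher on HFD and 5 lower (9.5% and 11.8% of all genes), with a median of -0.29 beside -0.03 for all genes. With the length and GC offsets 1 was higher and 4 lower, with a median of -0.10. In that fit 12.9% of all genes were called and 7.66% called lower. In meKO 0 were called by edgeR, with 3 of 20 at an unadjusted p under 0.05, beside 15.9% of all genes. The nuclear receptor gene Ppard (-0.77 ± 0.16, edgeR adjusted p = 0.0123), the kinase genes Jak3 (-0.99 ± 0.25, 0.0213) and Tyk2 (-0.62 ± 0.18, 0.0316) and Stat6 itself (-0.56 ± 0.16, 0.0318) were lower in WT. With the offsets Ppard (-0.63, adjusted p = 0.0122), Jak3 (-0.69, 0.0295) and Stat6 (-0.38, 0.0461) were still called, and Tyk2 (-0.26, 0.15) was not. Averaged over genotypes Pparg, a lipid-sensing nuclear receptor that supports alternative activation, rose by 0.47 ± 0.12 (adjusted p = 0.0138), and Klf4, a STAT6-induced transcription factor, rose by 0.65 ± 0.17 (0.0154). Both were also called with the offsets, at 0.35 (adjusted p = 0.0172) and 0.72 (0.011).

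Of 30 other IL-4-induced targets 24 were listed. In WT 1 was called higher and 2 lower, beside 9.5% and 11.8% of all genes. With the length and GC offsets 2 were higher and 3 lower, beside 12.9% of all genes called and 7.66% called lower. Tgm2, transglutaminase 2, rose by 0.71 ± 0.21 (log2; edgeR adjusted p = 0.034) and was at 0.93 with the offsets (0.00969). Itgax, the integrin CD11c, fell by 0.78 ± 0.23 (0.0312), and Alox15, the 12/15-lipoxygenase, fell by 1.91 ± 0.61 (0.0498). Neither was called with the offsets (Itgax -0.61, adjusted p = 0.0746; Alox15 -1.98, 0.06). Averaged over genotypes 4 of 24 were higher and 1, Alox15, lower, beside 14.9% and 15.3% of all genes, with a median of 0.23. The offsets gave 2 higher and 3 lower, with a median of -0.01, beside 24.2% of all genes called and 12.8% called lower. In meKO 0 were called by edgeR, with 5 of 24 at an unadjusted p under 0.05, beside 15.9% of all genes. Alox15 is also a gene of eosinophils and resident peritoneal macrophages. Of 8 eosinophil markers Epx, Prg2, Ear1 and Ear6 were not in the table, and the 4 listed (Siglecf, Il5ra, Ccr3 and Alox15 itself) summed to 26.2 to 52.1 CPM in WT chow, 16.3 to 24.6 in WT HFD, 25.6 to 68.6 in meKO on chow and 24 to 44.7 in meKO on HFD. In WT mean Ccr3 was 15.4 CPM on chow and 10.9 CPM on HFD, mean Il5ra 2.03 and 0.971 CPM, and mean Siglecf 5.55 and 5.32 CPM. In meKO the means on chow and HFD were 27.1 and 19.3 CPM for Ccr3, 2.23 and 1.45 for Il5ra, and 7.36 and 8.08 for Siglecf. Alox15, at means of 14.6 and 3.87 CPM in WT, is part of the sum, so the sum is not independent of it. The part of eosinophils in the Alox15 result was not tested.

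Of 24 symbols of genes that go with Cd163 and Folr2 on resident or glucocorticoid-treated macrophages, 22 were listed. Il10 was not in the table, and Sepp1 is an older symbol of Selenop, which is among the 22. Averaged over genotypes 0 of 22 were called higher on HFD and 11 lower (14.9% and 15.3% of all genes), with a median of -0.48 beside -0.03 for all genes. In WT 8 were lower, beside 11.8% of all genes, and 4 with the length and GC offsets, beside 7.66%. In meKO 1 of the 22, F13a1, coagulation factor XIII A, was called lower (-1.10 ± 0.18, edgeR adjusted p = 0.0297), beside 0.0729% of all genes. With the offsets 3 were lower in meKO, beside 0.3% of all genes called. Averaged over genotypes Maf, a transcription factor of resident macrophages, fell by 0.64 ± 0.08 (edgeR adjusted p = 8.37e-04), and Selenop, selenoprotein P, fell by 0.81 ± 0.10 (9.52e-04). F13a1 fell by 0.98 ± 0.12 (9.88e-04), and Stab1, a scavenger receptor, fell by 0.99 ± 0.16 (0.00352). With the offsets 9 of the 22 were lower and 0 higher in the average, beside 12.8% of all genes called lower. Selenop (-1.01, adjusted p = 2.14e-04), F13a1 (-0.93, 0.00126), Maf (-0.47, 0.00199) and Stab1 (-0.63, 0.00799) were among these, while in WT alone Stab1 lost its call with the offsets (-0.55, 0.061). Folr2 itself thus went the other way from this list, with the limits given above. Summed markers of resident large peritoneal macrophages overlapped between the diets, at 154 to 419 CPM in WT chow, 215 to 325 CPM in WT HFD, 114 to 315 CPM in meKO chow and 139 to 314 CPM in meKO HFD. The sum hides opposite directions. In WT the means of Vsig4 (152 CPM on chow, 182 on HFD), Icam2 and Gata6 were higher on HFD. The other means were lower, such as Prg4 (72 and 29.5 CPM) and Timd4 (20.7 and 13.2 CPM). Of the 10 genes 1 was called lower in WT, beside 11.8% of all genes, and 0 higher.

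**Figure D5:**
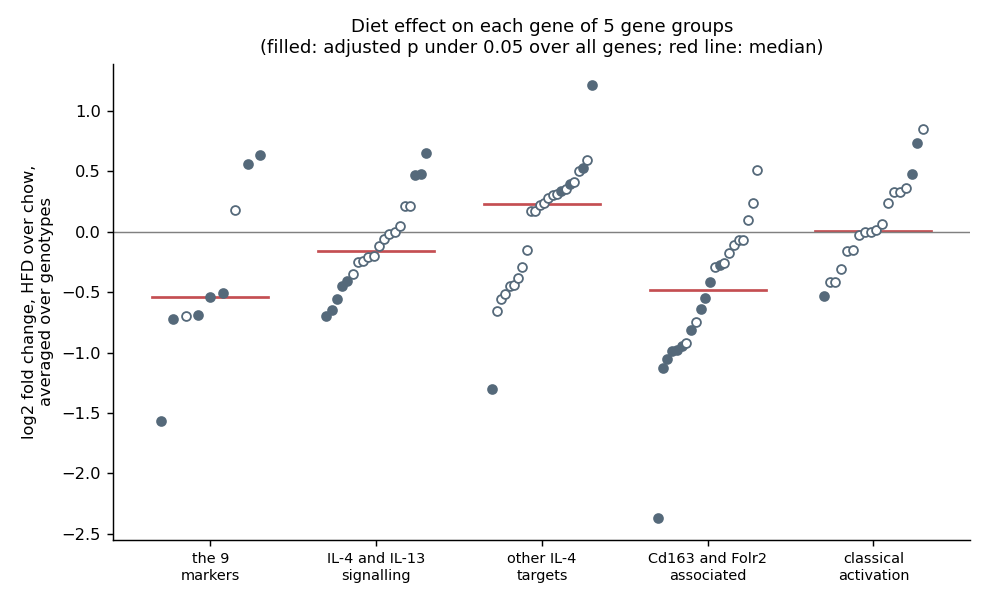
Log2 difference of HFD minus chow, averaged over genotypes, for the genes of the marker set and 4 lists (points), with the median of each group and filled points for called genes. The genes that go with Cd163 and Folr2 have a median of -0.48 and no member called higher.

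Of 26 classical activation genes 18 were listed; Nos2, Il6, Il12a, Il12b, Il23a, Cxcl9, Cxcl10 and Cxcl11 were not in the table. In WT Cd40, a costimulatory receptor, rose by 0.70 ± 0.22 (log2; edgeR adjusted p = 0.0411) and Irf8, an interferon regulatory factor, fell by 0.63 ± 0.15 (0.0203), while 16 of the 18 were not called, beside 21.3% of all genes called. With the length and GC offsets Irf8 was called (-0.54, 0.0204) and Cd40 was not (0.67, 0.073). Of relatives of the 9 markers, 5 of 15 were listed. In WT 2 of these were called lower and 0 higher, beside 11.8% and 9.5% of all genes. Cd209f, also in the list of genes that go with Cd163 and Folr2, fell by 2.22 ± 0.61 (edgeR adjusted p = 0.0266). With the offsets it was at -2.51 (0.0227), and its means were low, at 0.961 CPM in WT chow and 0.2 CPM in WT HFD. Retnlg, a paralog of Retnla that neutrophils express, fell by 0.96 ± 0.30 on HFD in WT (edgeR adjusted p = 0.0395; -1.59 with the offsets, 0.0146) and was higher in meKO than in WT averaged over diets (1.60 ± 0.21, adjusted p = 0.00745). Neutrophil markers went both ways: of the 5 listed, Retnlg included, 2 were called higher on HFD in WT and 2 lower, beside 9.5% and 11.8% of all genes. Mean S100a8, for example, was 10.4 CPM in WT chow and 17.5 CPM in WT HFD. Retnla shares 0% of its 50-base windows with Retnlg.

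The genes most like each marker were found by Pearson's r of log2 CPM over the 12 libraries, among 9319 genes. These values are a description: the libraries share diet groups and, in WT chow, the relation to length. Cd163 was most like Selenop (r = 0.97), St3gal3 (0.96) and Stard4 (0.96). Mgl2 was most like H2-Aa (0.96), the MHC class II chain gene, then Susd1 and Cacfd1 (0.91 each). Mrc1 was most like St3gal2, Tbc1d4 (0.95 each) and Stab1 (0.94), and Clec10a like Sult1a1 (0.95), Chp2 and Zfp422 (0.93 each). Il4ra was most like Xdh, Plxnb2 and Ikbkb (0.96 each), all with transcripts of 4845 bases or more. Arg1 was most like Osm (0.93), Cul2 (0.92) and Id2 (0.91), and Folr2 like Mycbp (0.95), Abcf3 and Gpx4 (0.93 each). Retnla was most like Cd33 (0.94), Fcrl2 (0.93) and P2ry13 (0.91), and Chil3 had the lowest values, with Rasgrp2 at 0.85, Gnas at 0.83 and Rras at 0.82. Between markers, Mrc1 and Cd163 had r = 0.82 and Clec10a and Mgl2 r = 0.81. After each group's mean was taken out these were 0.00 and 0.67. Mrc1 had r = 0.59 with Clec10a and 0.45 with Mgl2, and -0.79 and -0.65 after the group means were taken out.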

How the data were processed

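RNA-seq counts were read for 12 libraries. The authors deposited a table of read counts per gene, unnormalised, with whole numbers per the file; TruSeq libraries from Trizol RNA are stated per the labels. The submitters' processing notes name mm10 and DESeq2 without a role; aligner, counter and strand are not given in the sources used here. Each gene reaches at least 0.501 CPM in 6 libraries, so the table was already filtered. Rows without a symbol (186) held 0.44% of counts.

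Counts were fitted with edgeR 4.0.16 (TMM factors, robust quasi-likelihood F test, 4 group means over 12 libraries) in R 4.3.3, with p-values adjusted by Benjamini-Hochberg over 12339 genes. CPM are TMM-scaled, and SE is the log2 difference over the root of F. Alternatives were other scalings and filters, DESeq2 1.42.0, voom in limma 3.58.1 with and without library quality weights, length and GC offsets (spline with 5 df, GENCODE M21 transcripts, values for 93.5% of genes), leaving out each library, and, chosen after seeing the data, leaving out WT chow libraries 1 and 2 together. On simulated data for diet in WT over 12339 genes, 84% of genes changed by a log2 of 1 and 96% of those changed by 2 were recovered, with 17 false calls. The simulation changed 200 genes and gave no library a relation to transcript length. Its figures therefore do not describe error in the real libraries, where WT chow libraries 1 and 2 have that relation.

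All 9 markers are named in every comparison, up to 4 called genes per list and comparison by smallest p, and the 3 genes most like each marker. The members and lists were chosen with earlier results of these data known. Replicate numbers follow accession order and only name libraries; the labels do not say how libraries map to animals, so p-values measure the spread between libraries. Replicate pairs differed beyond counting noise (chi-square per degree of freedom 16.9 to 110). Library depth was 25844958 to 37282772 counts.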

Additional observations from a re-analysis of the deposited data

Results flagged for a closer look

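In a group of 6 libraries, a value was singled out where its gap to the next was over Dixon's 95% critical share of the group's range; 36 groups were examined, and chance singles out about 1 in 20. Retnla in WT chow replicate 3, at 176 CPM, was the highest of the 6 chow libraries (gap 0.737 of the range) and of the 6 WT libraries (0.796). Clec10a in the same library, at 102 CPM, was the highest of the 6 chow libraries (0.723). Without this library the averaged diet difference of Clec10a was -0.44 on the log2 scale, still called by edgeR (adjusted p = 0.00166), and that of Retnla was -0.34 (adjusted p = 0.258).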

How the results depend on the processing

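The number of markers called moved with the fit. Leaving out 1 library at a time gave 0 to 1 for genotype on chow, 1 to 6 for diet in WT, 0 to 1 for diet in meKO and 4 to 7 for diet averaged over genotypes; genotype on HFD, genotype averaged and the interaction stayed at 0. Over all genes the same runs called 2 to 2543 for genotype on chow, 96 to 4921 for diet in WT, 1 to 135 for diet in meKO and 1957 to 5326 for diet averaged. With library quality weights voom called 1 marker for genotype on chow (Mrc1), 1 for genotype averaged (Arg1, 0.60, adjusted p = 0.0385) and 3 for diet in meKO, and fitting only the meKO groups called 0. Over all genes these fits called 4047, 3835, 398 and 1. Without WT chow libraries 1 and 2 together, 1 was called for diet in WT and 4 for diet averaged, and the number of all genes called in WT fell from 2634 to 15; with 1 WT chow library left, it is assumed to vary like the other groups. With the offsets 1587 genes were called in WT, and with quality weights 6411. Over all genes DESeq2 called 563 against edgeR's 10 for genotype on chow, 53 against 10 on HFD, 366 against 21 averaged, 226 against 13 for diet in meKO and 15 against 2 for the interaction. Of 38 differences given singly, 860 values under alternatives were computed: 797 kept their direction and side of the threshold, 47 lost and 12 gained the call, and 4 changed sign. The sign changes were Chil3 in meKO without meKO chow replicate 1 (0.18; leaving out 1 library gave -0.66 to 0.18), Folr2 in meKO without meKO chow replicate 3 (0.00; 0.00 to 0.42), and Chil3 averaged over genotypes with the offsets (-0.11) or without meKO HFD replicate 1 (-0.04; -0.04 to 0.39); the cause was not tested. No paired analysis was possible because the labels carry no replicate numbers shared between groups. With as few as 124 reads, Cd163 is the marker whose counting error is largest.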

Other observations

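Markers of other cells in the lavage also differed between the diets in WT. Summed B cell markers (6 of 7 listed) were at 197 to 250 CPM on chow and 114 to 138 CPM on HFD. Of these genes 3 were called lower, beside 11.8% of all genes. Summed mesothelium and fibroblast markers (10 of 10 listed) were at 51.5 to 92.4 CPM on chow and 96 to 141 CPM on HFD. Of these 3 were called higher, beside 9.5% of all genes. Taken singly, 39.3% of all genes did not overlap between the diets in WT. In meKO the mesothelium and fibroblast sums also did not overlap between the diets, at 51.3 to 97.2 CPM on chow and 114 to 143 CPM on HFD, while the B cell sums overlapped at 139 to 251 and 130 to 216 CPM. There 0 genes of either list were called, and 19.7% of all genes did not overlap.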
